A study of Arabidopsis thaliana with 5 samples.

Results

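The auxin signalling genes described here are 50 loci of Arabidopsis thaliana, chosen by locus identifier: 29 Aux/IAA genes, 15 ARF genes and 6 TIR1/AFB genes, out of 27444 protein-coding genes on chromosomes 1 to 5. No measured value entered the rule that chose them, but the choice was made with earlier results of these data known. For each gene, the peaks that 5 ChIP-Seq lists hold within 2 kb of its annotated ends were collected, with the fold enrichment and the position of the summit relative to the transcription start site (TSS).

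The lists come from whole Col-0 seedlings. By the labels these grew at 20°C in 16 h of light and at 18°C in 8 h of darkness. The study's methods instead name continuous light and a higher temperature for its plants. A line carrying SCL28-GFP, a GRAS protein fused to green fluorescent protein, was sampled as 2 replicates, and so was a line carrying AtSMOS1-GFP, an AP2-type protein. Both were precipitated with an antibody against GFP, and 1 input sample was made from total chromatin of the wild type (WT). The AtSMOS1 fusion was driven by its own promoter, whereas the study names the RPS5A promoter for the SCL28 fusion in one place and the SCL28 promoter in another. The study calls the replicates biological, and the GFP lines are labelled by transgene only. The SCL28 lists hold 488 and 396 nuclear peaks, the AtSMOS1 lists 5438 and 6934, and the list of the WT input 5695. Peak lists hold no counts of reads, so the depth behind a single fold enrichment is unknown here. The study's reporting summary lists more uniquely mapped reads for replicate 2 than for replicate 1 of each protein, and none for the input. In both replicate 2 lists the peaks carry the name of the other protein. Each list was nevertheless taken for the protein that its sample label names. The SCL28 gene itself had a peak of 5.33-fold and 5.99-fold in the SCL28 lists and none in the AtSMOS1 lists, and the AtSMOS1 gene had 15.2-fold and 14.5-fold in the AtSMOS1 lists, against 2.2-fold and no peak in the SCL28 lists. Because the material was whole seedlings, a site occupied in few cells and a site occupied weakly in many cells cannot be told apart.

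TIR1 and the AFB proteins are F-box subunits of SCF ubiquitin ligases and act as auxin receptors. Auxin holds an Aux/IAA protein to its receptor, and the Aux/IAA protein is then degraded. Aux/IAA proteins otherwise sit on ARF transcription factors, which bind auxin response elements such as TGTCTC and TGTCGG, and recruit TPL/TPR co-repressors to them. Many Aux/IAA genes are themselves switched on by auxin, which closes a feedback loop.

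The sites on which the description turns are printed first, in the direction of transcription of the gene and from the TAIR10.1 assembly, whose nuclear chromosomes are those of TAIR10. The first is the only site at these genes where both proteins had a peak in both replicates, upstream of IAA2. It is the 163 bases common to the 4 peaks, chr3:8182986-8183148, minus strand, 1053 to 891 bp before the TSS, and the capitals run from the outermost of the 4 summits to the other.
IAA2: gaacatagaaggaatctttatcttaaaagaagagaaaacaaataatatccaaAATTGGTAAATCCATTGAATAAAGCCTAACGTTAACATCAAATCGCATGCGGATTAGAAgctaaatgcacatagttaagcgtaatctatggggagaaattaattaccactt

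Further sites with AtSMOS1 peaks of both replicates lie upstream of other members. For IAA19 the whole peak of replicate 1 is shown, chr3:5263763-5263972, plus strand, with TGTCTC in capitals. For IAA16 the 275 bases common to both replicates are shown, chr3:1291071-1291345, minus strand, with TGTCGG in capitals. For ARF2 it is the 200 bases around the summit with the highest fold enrichment at any member, chr5:24908285-24908484, plus strand, 1906 to 1707 bp before the TSS, with the bases from one replicate's summit to the other's in capitals.
IAA19: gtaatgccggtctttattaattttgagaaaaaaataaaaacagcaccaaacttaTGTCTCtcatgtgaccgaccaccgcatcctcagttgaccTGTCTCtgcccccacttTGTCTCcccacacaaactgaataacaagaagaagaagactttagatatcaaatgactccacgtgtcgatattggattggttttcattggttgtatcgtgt
IAA16: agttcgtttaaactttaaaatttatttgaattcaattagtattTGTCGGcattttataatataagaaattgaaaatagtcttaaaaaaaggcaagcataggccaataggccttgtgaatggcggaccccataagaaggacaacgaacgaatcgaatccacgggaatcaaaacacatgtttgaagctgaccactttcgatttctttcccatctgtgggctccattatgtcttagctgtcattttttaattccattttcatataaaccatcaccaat
ARF2: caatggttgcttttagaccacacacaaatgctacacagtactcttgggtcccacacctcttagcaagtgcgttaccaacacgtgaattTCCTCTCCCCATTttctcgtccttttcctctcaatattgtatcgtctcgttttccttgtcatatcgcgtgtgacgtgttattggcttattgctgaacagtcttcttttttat

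The last pair lies before the TSS of the receptor genes AFB2 and AFB3 and is the part upstream of the TSS that the AtSMOS1 peaks of both replicates have in common, chr3:9867478-9867651, plus strand, for AFB2 and chr1:4371319-4371552, minus strand, for AFB3. The capitals mark the best local alignment between both stretches, described with the receptors.
AFB2: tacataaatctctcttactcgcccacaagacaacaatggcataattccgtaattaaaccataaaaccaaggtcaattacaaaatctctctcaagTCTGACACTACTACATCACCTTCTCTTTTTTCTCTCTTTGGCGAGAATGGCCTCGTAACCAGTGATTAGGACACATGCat
AFB3: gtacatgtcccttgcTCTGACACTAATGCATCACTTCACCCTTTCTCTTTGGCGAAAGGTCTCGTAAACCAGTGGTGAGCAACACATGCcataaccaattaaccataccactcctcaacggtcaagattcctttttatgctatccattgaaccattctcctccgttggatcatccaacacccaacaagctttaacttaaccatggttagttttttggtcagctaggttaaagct

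AtSMOS1 peaks lay near auxin signalling genes of all 3 families, and within 2 kb the share was highest for the receptor genes, whereas SCL28 peaks were found at 2 members. In both AtSMOS1 replicates, 21 of the 50 members had a peak within 2 kb (42%, 95% confidence interval 28.2 to 56.8%), against 21.1% of all protein-coding genes. By family, these were 5 of 6 TIR1/AFB genes (83.3%, 35.9 to 99.6%), 11 of 29 Aux/IAA genes (37.9%, 20.7 to 57.7%) and 5 of 15 ARF genes (33.3%, 11.8 to 61.6%). The intervals are exact (Clopper-Pearson) and cover counting error only. The background of 21.1% lay inside the Aux/IAA and ARF intervals and below those of the receptors and of all 50 members. Taken singly, replicate 1 gave 21 members, against 24.5% of all protein-coding genes, and replicate 2 gave 29 members, against 30.8%. The counts fell with stricter peaks. At a −log10 q of at least 5, 9 of 50 members (18%) had an AtSMOS1 peak in both replicates, against 9.91% of all protein-coding genes, and the receptors no longer stood highest, with 1 of 6 (AFB2), beside 5 of 29 Aux/IAA and 3 of 15 ARF genes. The plot of shares by family shows these values beside those of SCL28 and of the WT input.

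**Figure D1:**
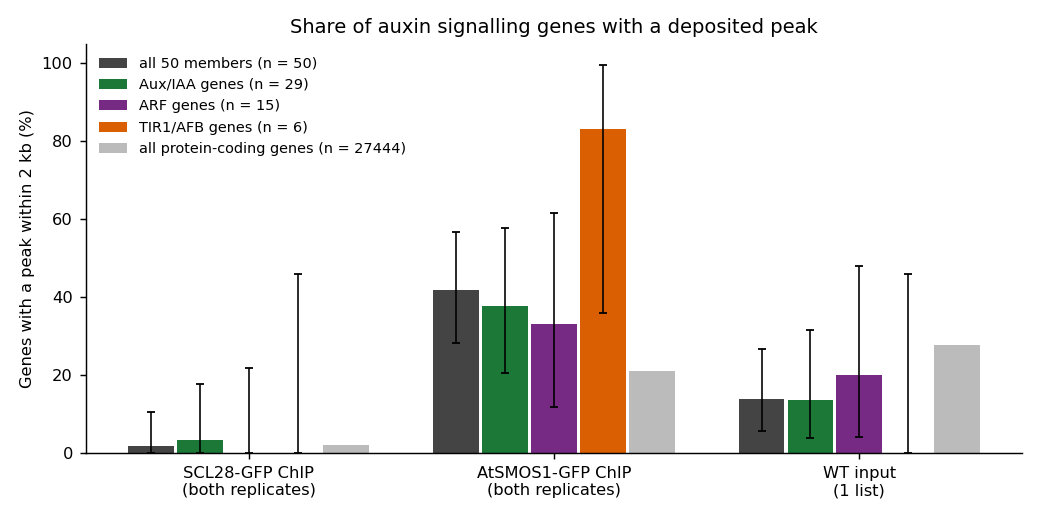
Percent of genes with at least 1 deposited peak within 2 kb, for the 50 auxin signalling genes, each family and all 27444 protein-coding genes. Error bars are exact 95% binomial intervals, and the receptor family is the one whose bar stands highest for AtSMOS1, at 83.3% beside a background of 21.1%.

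The families differ in gene length, which widens the window searched. The median length was 1740 bp for Aux/IAA genes, 4530 bp for ARF genes and 2953 bp for TIR1/AFB genes, against 2078 bp for all protein-coding genes. With a window of fixed size, summits within 500 bp of the TSS on either side, a class chosen after the positions had been seen, 12 of 50 members (24%, 13.1 to 38.2%) had an AtSMOS1 summit in both replicates, against 7.17% of all protein-coding genes. These were IAA2, IAA3, IAA4, IAA9, IAA14, IAA16, IAA19, ARF2, TIR1, AFB1, AFB2 and AFB3. The class thus held 4 of 6 receptor genes, 7 of 29 Aux/IAA genes and 1 of 15 ARF genes, so the ARF share of 6.67% was near the background.

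In the first 500 bp of the gene alone, 6 of 50 members (12%) had an AtSMOS1 summit in both replicates, against 1.88% of all protein-coding genes. They were IAA2, IAA3, IAA14, ARF2, TIR1 and AFB1. Of the 5 position classes, which use the same 500 bp cut, this one stood farthest above the background. In the 500 bp before the TSS it was 3 members (6%), against 4.26%. From 2 kb to 500 bp before the TSS it was 5 (10%), against 6.23%, and in the rest of the gene 3 (6%), against 2.12%. In the 2 kb downstream of the gene it was 7 members (14%), against 7.35%, and 4 of these were ARF genes. At IAA16 and ARF2 the downstream summits of the replicates belonged to different peaks, which did not overlap. The map of all summits along the genes shows those of TIR1, AFB1 and AFB2 close to the TSS. Those of AFB3 lay close to it and far upstream, and those of AFB4 and AFB5 past the gene. ARF summits lay mostly at or past the end of the gene.

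**Figure D2:**
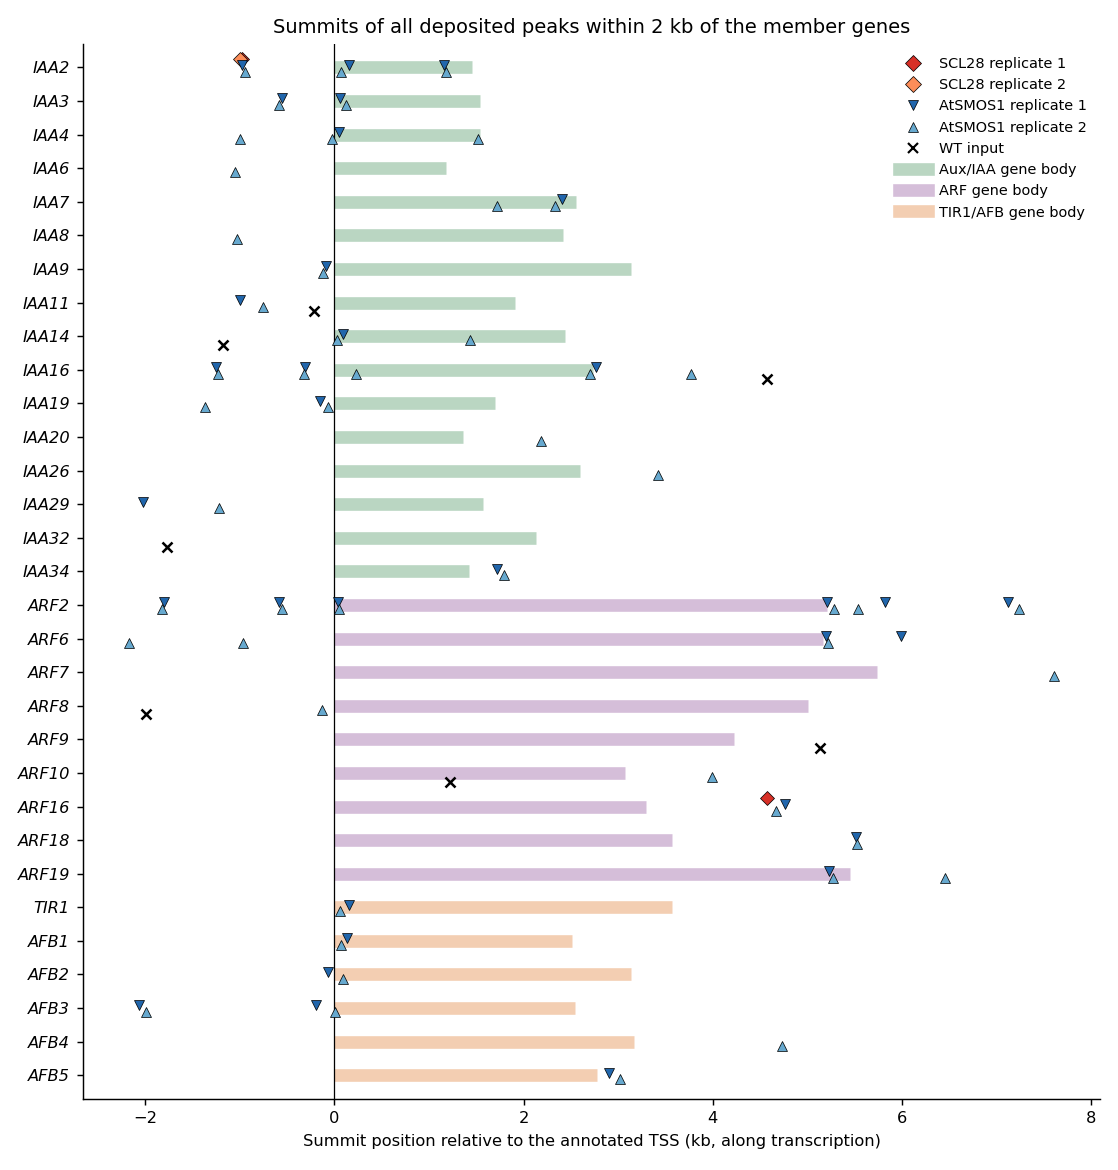
Summit of every deposited peak within 2 kb of a member that had any peak, in kb from the annotated TSS, with gene bodies as bars. Triangles are AtSMOS1, diamonds SCL28 and crosses the WT input. TIR1, AFB1, AFB2 and AFB3 each have a summit near the TSS in both AtSMOS1 replicates, and SCL28 appears at IAA2 and ARF16.

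**Figure D3:**
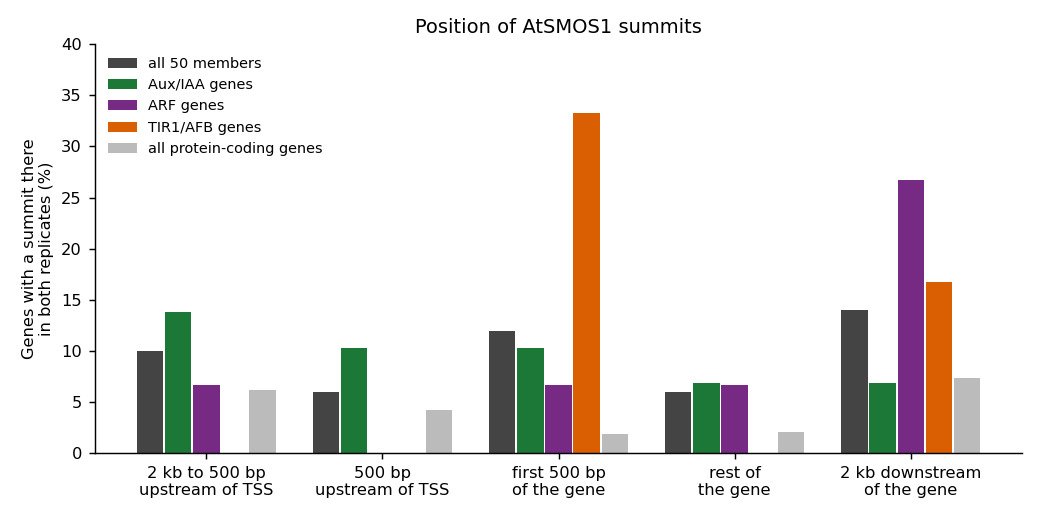
Percent of genes with an AtSMOS1 summit of both replicates in each of 5 position classes, for the 50 members, each family and all protein-coding genes. Summits of the replicates need not belong to overlapping peaks. The members stand at 12% and all protein-coding genes at 1.88% in the first 500 bp of the gene, the class farthest above the background. In the 500 bp upstream of the TSS they stand at 6% and 4.26%, and from 2 kb to 500 bp upstream at 10% and 6.23%.

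Among the receptors, TIR1, AFB1, AFB2 and AFB3 each had an AtSMOS1 summit within 500 bp of the TSS in both replicates. At TIR1 (AT3G62980), the receptor first identified, the peak was 3.58-fold in replicate 1, with its summit 158 bp past the TSS, and 3.46-fold in replicate 2, at 54 bp. Both summits lay in the 5' UTR. At AFB1 (AT4G03190), which acts in rapid auxin responses of the root, the values were 3.63-fold at 138 bp and 3.13-fold at 65 bp, again in the 5' UTR. These 4 values sat close to the median of their lists, which was 3.65-fold in replicate 1 and 3.34-fold in replicate 2.

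AFB2 (AT3G26810) and AFB3 (AT1G12820), receptors most alike each other, were higher in replicate 1 than in replicate 2. AFB2 had 4.72-fold with the summit 66 bp before the TSS in replicate 1, and 2.75-fold at 95 bp past it in replicate 2. AFB3 had 4.79-fold at 194 bp before the TSS in replicate 1, and 3.06-fold at 5 bp past it in replicate 2. The replicate 1 peaks were above 82.8% and 84.2% of that list, and the replicate 2 peaks above 19.1% and 35.5% of the other, so both rank apart between replicates. The summits of the replicates were 161 bp and 199 bp apart, although the peaks overlapped.

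The sequences under these peaks share a stretch. The best local alignment of the AFB2 and AFB3 bases printed above covered 80 columns, of which 63 were identical (78.8%). It ran from 80 to 3 bp before the TSS of AFB2 and from 239 to 166 bp before the TSS of AFB3. Both replicate 1 summits fell inside it. The replicate 2 summits lay past the TSS and so outside the bases compared. No bases outside the peaks were aligned, so whether such likeness is particular to these sites was not tested. AFB3 had a further peak upstream, 3.83-fold at 2067 bp and 3.14-fold at 1991 bp before the TSS, whose nearest gene was AT1G12840.

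AFB4 and AFB5, the receptors that also perceive the synthetic auxin picloram, had no AtSMOS1 summit within 500 bp of the TSS. AFB5 (AT5G49980) had a peak just past its end, 2.68-fold and 3.65-fold, with summits 125 and 247 bp downstream. AFB4 (AT4G24390) had 1 peak, in replicate 2 only, of 2.66-fold and 1568 bp downstream, with another gene nearer to it. No receptor gene had an SCL28 peak or an input peak within 2 kb (0 of 6 each, with an upper limit of 45.9%), against 2.07% of all protein-coding genes for SCL28 in both replicates and 27.9% for the input, so that 6 genes are too few to read these zeros.

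IAA2 (AT3G23030, chr3:8180646-8182095), an auxin-induced Aux/IAA gene, was the member with peaks of both proteins in both replicates. SCL28 had 3.56-fold with the summit 973 bp before the TSS in replicate 1, and 3.53-fold at 1001 bp in replicate 2. AtSMOS1 had 4.11-fold at 980 bp and 4.48-fold at 943 bp before the TSS. Between SCL28 and AtSMOS1 the summit moved by 7 bp in replicate 1 and by 58 bp in replicate 2. The SCL28 values were modest for their lists, above 37.7% and 22.7% of the peaks, while the AtSMOS1 values were above 68.4% and 84.9%. In replicate 1 the shared bases made up 47.7% of the SCL28 peak and 100% of the AtSMOS1 peak, and in replicate 2 they made up 94% and 53.8%.

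IAA2 also had AtSMOS1 peaks without SCL28 at both ends of the gene. Near the start they were 3.72-fold at 152 bp and 2.79-fold at 65 bp past the TSS, and in the 3' UTR 2.93-fold at 1161 bp and 2.68-fold at 1183 bp. For all members, 1 of 50 had SCL28 peaks in both replicates (2%, 0.0506 to 10.6%), against 2.07% of all protein-coding genes. The same gene was the 1 of 50 with peaks of both proteins in both replicates, against 1.46% of all protein-coding genes. These shares are at the background.

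The other gene with an SCL28 peak was ARF16 (AT4G30080), an ARF of the root cap, and there it was called in replicate 1 only. It was 3.16-fold, 1283 bp past the end of the gene, and overlapped AtSMOS1 peaks of 2.89-fold in replicate 1 and 3.30-fold in replicate 2. The nearest gene was AT4G30074. Single SCL28 replicates thus gave 2 members in replicate 1, against 2.77% of all protein-coding genes, and 1 in replicate 2, against 2.27%.

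Of the Aux/IAA genes, IAA2, IAA3, IAA4, IAA9 and IAA16 had the highest AtSMOS1 values when ranked by the lower of the highest peaks of both replicates, which at IAA3 and IAA16 were at different sites. IAA3 (SHY2, AT1G04240), a repressor that limits the root meristem, had a peak of 5.01-fold and 4.97-fold with summits 556 and 581 bp before the TSS. Another one at its start was 3.66-fold at 55 bp and 5.22-fold at 123 bp. IAA4 (AT5G43700), its closest relative, had 4.17-fold at 50 bp past the TSS in replicate 1 and 5.74-fold at 25 bp before it in replicate 2. The replicates thus differed in level at the starts of both genes and placed the summits within 75 bp of each other.

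IAA9 (AT5G65670), whose tomato counterpart restrains fruit set, had 4.40-fold and 4.57-fold at 89 and 124 bp before the TSS, inside the non-member gene AT5G09425 that overlaps this position. IAA16 (AT3G04730) had 3 peaks in both replicates. The one printed above was 5.71-fold at 306 bp and 4.03-fold at 326 bp before the TSS. Farther upstream it had 3.62-fold and 4.13-fold at 1254 and 1230 bp, nearest to AT3G04735, and at the end of the gene 2.60-fold and 3.37-fold. Replicate 2 held 2 more.

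IAA16 belongs with IAA7 (AXR2), IAA14 (SLR) and IAA17 (AXR3) to a group whose stabilised mutants have strong root phenotypes. Of these 4, 3 (75%) had AtSMOS1 peaks in both replicates, against 37.9% of the Aux/IAA genes and 21.1% of all protein-coding genes. With 4 genes, this share cannot be told apart from either of those. IAA14 (AT4G14550), which holds back lateral root initiation, had 3.43-fold at 90 bp and 2.87-fold at 22 bp past the TSS, in the 5' UTR. IAA7 (AT3G23050) had 3.47-fold and 3.65-fold at 2402 and 2336 bp, in the 3' UTR. IAA17 (AT1G04250) had no ChIP peak. It is a neighbour of IAA3 on chromosome 1, and IAA1, a neighbour of IAA14 on chromosome 4, had none either. No ChIP peak lay within 2 kb of more than 1 member.

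IAA19 (MSG2, AT3G15540), which acts in tropic bending of the hypocotyl, had the least even pair of values. It was 4.24-fold at 153 bp before the TSS in replicate 1 and 2.11-fold at 69 bp in replicate 2, a ratio of 2.01. The replicate 2 peak was above 1.54% of its list. IAA34 (AT1G15050), one of the 5 members that lack the degron motif bound by the receptors, had 3.06-fold and 3.36-fold at 293 and 374 bp past its end. IAA20, IAA30, IAA32 and IAA33, the others of that kind, were not called in both AtSMOS1 replicates. The share of 1 of 5 (20%) was thus near the 21.1% of all protein-coding genes.

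At IAA11 and IAA29 the call in both replicates rested on sites with another gene nearer. IAA11 (AT4G28640) had 3.24-fold at 998 bp and 2.97-fold at 754 bp before the TSS, with AT4G28630 nearest. IAA29 (AT4G32280), a gene induced in shade, had 3.44-fold at 2027 bp in replicate 1 and 2.46-fold at 1222 bp in replicate 2, which are peaks that share no base. It ranked below the 20 members chosen for description by fold enrichment and is given because it was the single member whose replicates did not overlap. With overlap of the replicates required, 20 of 50 members were left, against 20.1% of all protein-coding genes.

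The highest AtSMOS1 values at any member were at ARF2 (AT5G62000, chr5:24910191-24915395), a repressing ARF whose loss gives enlarged organs and seeds. It had 6 AtSMOS1 peaks in each replicate. The highest was 7.10-fold with the summit 1806 bp before the TSS in replicate 1 and 6.75-fold at 1818 bp in replicate 2, above 98.9% and 98.4% of the lists. Its nearest gene was AT5G61997, a 120 bp open reading frame at the site. At the TSS of ARF2 the values were 5.74-fold at 38 bp and 4.06-fold at 53 bp, in the 5' UTR. Between them, at 587 and 553 bp before the TSS, it had 2.92-fold and 2.87-fold. At the end of the gene the values were 4.26-fold and 2.91-fold, and farther downstream, inside AT5G62020, they were 4.32-fold and 3.92-fold. The remaining peak of each list, 3.06-fold and 3.16-fold, had no overlapping partner in the other.

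In the other ARF genes, the sites with an AtSMOS1 peak within 2 kb in both replicates lay at the 3' end or beyond. ARF6 (AT1G30330), an activating ARF of flower maturation, had 4.20-fold and 4.06-fold at 30 and 48 bp past its end. It also had upstream peaks in replicate 2, of 3.19-fold at 964 bp and 4.03-fold at 2172 bp before the TSS. The one at 2172 bp overlapped a replicate 1 peak of 2.96-fold that lay 2113 bp from the gene, just outside the distance counted. ARF19 (AT1G19220), which acts with ARF7 in lateral root formation, had 3.76-fold and 4.74-fold in its 3' UTR, at 5225 and 5272 bp from the TSS. ARF18 (AT3G61830) had 3.71-fold and 3.37-fold at 1945 and 1955 bp past its end, nearest to AT3G61840.

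By type, 2 of the 5 activating ARF genes (ARF6, ARF19, 40%) and 2 of the 7 repressing ones (ARF2, ARF18, 28.6%) had AtSMOS1 peaks in both replicates, against 21.1% of all protein-coding genes. The partners of the activating pairs, ARF7 for ARF19 and ARF8 for ARF6, had a peak in replicate 2 only. At ARF8 (AT5G37020) it was 3.07-fold at 131 bp before the TSS, and at ARF7 (AT5G20730) it was 2.73-fold and 1874 bp past the end. ARF5 (MONOPTEROS), which patterns the embryo, had no ChIP peak.

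In all, 8 members had a peak in AtSMOS1 replicate 2 only: IAA6, IAA8, IAA20, IAA26, ARF7, ARF8, ARF10 and AFB4 (8 of 50, 16%), against 9.78% of all protein-coding genes. None had one in replicate 1 only (0 of 50, upper limit 7.11%), against 3.42%. IAA6 (AT1G52830) was the highest of the 8, with 4.90-fold at 1052 bp before the TSS. IAA8 had 4.28-fold, and the others lay between 2.55-fold and 3.08-fold.

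No ChIP peak was listed within 2 kb of 21 members (42%, 28.2 to 56.8%), against 65.1% of all protein-coding genes. These were IAA1, IAA5, IAA10, IAA12, IAA13, IAA15, IAA17, IAA18, IAA27, IAA28, IAA30, IAA31, IAA32 and IAA33 and the ARF genes ARF1, ARF3, ARF4, ARF5, ARF9, ARF11 and ARF17. IAA12 (BODENLOS), the repressor that pairs with ARF5 in the embryo, is among them. A missing peak says that no site passed the q value cutoff of 0.05 there, not that the protein was absent.

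The fold enrichment at members lay near that of each list as a whole. The 33 AtSMOS1 peaks at members in replicate 1 had a median of 3.72-fold, with a range of 2.60 to 7.10, against 3.65-fold over the whole list. In replicate 2 the 50 peaks had a median of 3.15-fold and a range of 2.11 to 6.75, against 3.34-fold. By family the medians were 3.64-fold and 3.14-fold for Aux/IAA, 3.80-fold and 3.24-fold for ARF, and 3.73-fold and 3.13-fold for TIR1/AFB genes. The member gene was the nearest gene for 23 of the 33 peaks and 31 of the 50 peaks.

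Overlapping peaks of both AtSMOS1 replicates formed 30 pairs at members. The ratio of replicate 1 to replicate 2 had a median of 1.04, with a range of 0.70 to 2.01, against 1.02 over all 4415 pairs of both lists. Replicate 1 was higher in 19 of the 30 pairs. The summits were a median of 68 bp apart, against 50 bp over all pairs. The plot of replicate 2 against replicate 1 shows ARF2 at the top in both and IAA19, AFB2 and AFB3 below the line of equal values.

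**Figure D4:**
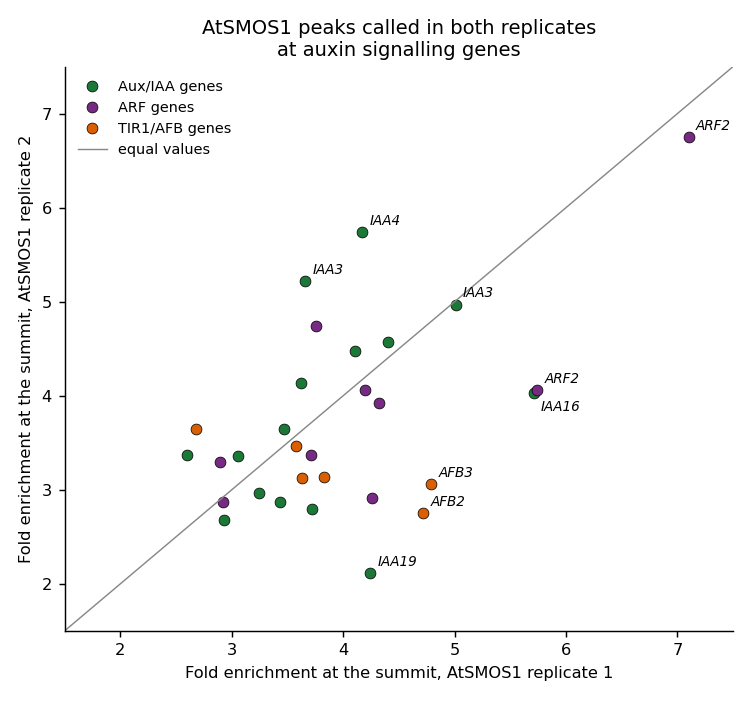
Fold enrichment of the 30 pairs of overlapping AtSMOS1 peaks at members, replicate 1 on the x axis and replicate 2 on the y axis, coloured by family. The site upstream of ARF2 is highest in both, at 7.10-fold and 6.75-fold, and the line marks equal values.

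The WT input list had a peak within 2 kb of 7 members (14%, 5.82 to 26.7%), against 27.9% of all protein-coding genes. They were IAA11, IAA14, IAA16, IAA32, ARF8, ARF9 and ARF10, with values between 3.07-fold and 5.07-fold. No ChIP peak at a member overlapped an input peak, as few peaks did anywhere: 1.02% and 1.01% of the SCL28 lists and 0.497% and 0.534% of the AtSMOS1 lists. IAA11 was the 1 member with an input summit within 500 bp of the TSS, against 8.28% of all protein-coding genes.

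Motifs were searched on both strands in the 200 bp centred on each summit. The 12-bp motif that the study derived for SCL28 and AtSMOS1 occurred in 20.9% and 25.3% of all SCL28 windows, in 1.05% and 0.923% of all AtSMOS1 windows and in 0.0702% of the input windows. At members it was absent from all 3 SCL28 windows, including those at IAA2, and from the 33 AtSMOS1 windows of replicate 1. It was found in 1 of the 50 windows of replicate 2, at the end of IAA4, under a peak of 2.52-fold that replicate 1 did not hold. The match is in capitals, within chr5:17551712-17551741, plus strand.
IAA4: aacatatatCATTGGATTCTAgtttcttta

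With 1 mismatch allowed, the motif was also found in the SCL28 window past ARF16 and in the AtSMOS1 windows far upstream of AFB3. With that allowance it occurred in 48.4% and 58.6% of all SCL28 windows, and in 5.70% and 5.65% of all AtSMOS1 windows.

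TGTCTC was in 3 of 33 AtSMOS1 windows at members in replicate 1 (9.09%), against 14.3% of all windows of that list, and in 8 of 50 in replicate 2 (16%), against 14.7%. The window at IAA19 held 3 copies in replicate 1 and 2 copies in replicate 2. TGTCGG was in 3 of 33 windows (9.09%), against 6.22%, and in 5 of 50 (10%), against 6.17%. It was at IAA2, IAA4 and IAA7 in replicate 1 and at IAA3, IAA7, IAA16 and ARF2 in replicate 2. These shares lay near those of the lists as a whole, and a match of 6 letters is not a site shown to be bound.

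Other genes of the pathway were counted by the same rule. Of the 5 TPL/TPR genes, the co-repressors that Aux/IAA proteins recruit, 4 had AtSMOS1 peaks in both replicates (80%, 28.4 to 99.5%), against 21.1% of all protein-coding genes. Counted by the nearest gene in both replicates it was 1 of 5 (TPR1), against 11.3%, since other genes were nearer to the peaks of TPL and TPR2 in both replicates and to that of TPR3 in replicate 1. TPR3 (AT5G27030) was the highest, with 7.07-fold at 168 bp and 7.90-fold at 181 bp before the TSS. TPL (AT1G15750) had 4.76-fold and 4.45-fold at 503 and 524 bp before it.

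Of the 7 GH3 genes, whose enzymes join auxin to amino acids, 4 had AtSMOS1 peaks in both replicates (57.1%, 18.4 to 90.1%). The background of 21.1% lay inside this interval. Counted by the nearest gene in both replicates, with no limit on distance, it was 5 of 7, with GH3.3 added (71.4%, 29 to 96.3%), against 11.3%. GH3.3 had an AtSMOS1 peak within 2 kb in replicate 2 only, so its addition rests on a replicate 1 peak farther away. WES1 (GH3.5, AT4G27260) had 7.01-fold and 6.22-fold at 1126 and 1102 bp before the TSS, and DFL1 (GH3.6, AT5G54510) had 5.32-fold and 6.74-fold at 1115 and 1160 bp. Among the 14 TAA1/TAR and YUC genes of auxin synthesis the count within 2 kb was 3 (21.4%, 4.66 to 50.8%). These were TAR2, YUC5 and YUC8, a share at the background of 21.1%. YUC5 (AT5G43890) had the highest value of all 4 ChIP lists inside its gene, 33.2-fold and 22.3-fold for SCL28 and 25-fold and 29.1-fold for AtSMOS1, so that it stands far from the other genes. Without it the count was 2. None of the 4 SCF subunit genes and none of the 8 ARF genes of the chromosome 1 cluster had AtSMOS1 peaks in both replicates, with upper limits of 60.2% and 36.9% that include the background of 21.1%. Outside YUC5, no gene of these 5 lists had an SCL28 peak in either replicate.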

How the data were processed

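The authors deposited 1 list of narrow peaks per sample, on TAIR10, with replicates not pooled. Per the labels, reads were processed with Trimmomatic 0.38, Bowtie2 2.3.5, SAMtools 1.9 and MACS2 2.2.7.1, and peaks passed a q value of 0.05. The study's methods and its reporting summary differ in the aligner, the fragment extension and the kind of peak, and the summary names the input as the control of the ChIP calls. The control of the input list is not given in the sources used here. The fold enrichment is a ratio at the summit over the local background, as the authors deposited it. For each peak the authors also deposited −log10 of p and of q from the caller, and a score, which repeats −log10 q on a whole-number scale and was not used.

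Organelle peaks were not used. A gene was counted when a peak came within 2 kb of its annotated ends in the RefSeq annotation of TAIR10.1 (33056 genes of chromosomes 1 to 5, of which 27444 protein-coding; 4843 pseudogenes were left out). All 50 loci were matched by identifier. The nearest gene was taken among the 33056 genes. Shares carry exact (Clopper-Pearson) 95% intervals. No significance test was run, since peak lists hold no counts and each protein had 2 replicates. The alignment scored 2 for a match, −3 for a mismatch and −4 for a gap. The functions were tested on simulated data. Python 3.11.15, numpy 2.4.6, scipy 1.17.1 and matplotlib 3.10.9 were used.

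The members, the pathway lists and the alternatives were chosen with earlier results of these data known. Every member with an SCL28 peak was named with its values, and every member with AtSMOS1 peaks in both replicates was named. Values were given for the 20 with the highest fold enrichment, ranked by the lower of both replicates. Members called in 1 AtSMOS1 replicate, those with an input peak and those with no ChIP peak were named as groups. The alternatives tried were a distance of 1 kb, overlap with the gene itself, the summit upstream of the TSS or within 2 kb of the gene, the nearest gene, a cutoff of 5 on −log10 q, removal of peaks touching the input, each replicate left out, and an overlap of 50%. Overlap between replicates and a summit within 500 bp of the TSS were added after seeing the data.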

Additional observations from a re-analysis of the deposited data

How the results depend on the processing

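No paired analysis was possible because no result comes from a test and the replicate numbers of the lists pair no samples. Of 76 counts under an alternative, 46 stayed within 1.5 times the value reported and 30 did not; the cause was not tested beyond what each setting removes. For AtSMOS1 in both replicates, the 21 members (11 Aux/IAA, 5 ARF, 5 TIR1/AFB) became 13 (7, 3 and 3) when the peak had to overlap the gene itself, against 6.92% of all protein-coding genes. They became 8 (6, 1 and 1) with the summit within 2 kb upstream of the TSS only, against 10.4%, and 9 (5, 3 and 1) at a −log10 q of at least 5, against 9.91%. With a summit within 500 bp of the TSS they became 12 (7, 1 and 4), against 7.17%, and with 1 kb in place of 2 kb the ARF count became 3, against 15.7%. Assigned to the nearest gene, 17 members were counted, against 11.3%. They include ARF3, which had no ChIP peak within 2 kb and so is not among the 21. Leaving out 1 replicate gave 21 to 29 members, 11 to 15 Aux/IAA genes, 5 to 8 ARF genes and 5 to 6 TIR1/AFB genes, the higher value without replicate 1 in each case.

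For SCL28 in both replicates, and for both proteins, the count of 1 became 0 when the peak had to overlap the gene or the summit had to lie within 500 bp of the TSS. It ranged from 1 to 2 when 1 replicate was left out, with ARF16 added without SCL28 replicate 2. The shared site of IAA2 was not counted (0) once the overlap had to reach 50% of each peak. In replicate 1 it made up 47.7% of the SCL28 peak, with lists compared by replicate number, which pairs no samples. The 7 members with an input peak became 3 at 1 kb, against 20.7% of all protein-coding genes, 1 with overlap of the gene, against 10.7%, and 4 with the summit upstream, against 10.3%. They became 4 by nearest gene, against 16%, 4 at the stricter q, against 13.4%, and 1 within 500 bp of the TSS, against 8.28%. The 2 settings on overlap of replicates and on 500 bp were chosen after seeing the data. The study lists more mapped reads for replicate 2 than for replicate 1 of each protein, and depth was not evened out here. A gene without a peak cannot be told from one below the caller's reach, and family shares rest on as few as 6 genes.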
